A study of Mus musculus with 5 samples.

Results

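The immediate early genes Fos, Fosb, Jun, Junb, Atf3, Egr1, Ier2 and Arc were followed across the cells of the mouse aortic arch. They were chosen by name, and all 8 were among the 16498 genes of the table. The data were 5 single-cell RNA libraries made with a droplet kit that tags the 3′ end of transcripts. There were 2 libraries from Oasl1+/+Apoe-/- mice, called Apoe-/- libraries here, and 3 labelled Oasl1-/-Apoe-/-. Both groups lacked Apoe on a B6 background, which makes mice prone to atherosclerosis, and both had been fed normal chow for 28 weeks. The Oasl1 allele had lost its promoter and exon 2. Cells of several mice were pooled (with n given as 6), live cells were sorted by DAPI, and no source says that the libraries of a group came from different pools, so that p-values here measure the spread between libraries only. The libraries held 3212 to 4338 cells and 16959976 to 19813039 unique molecular identifiers (UMIs), 18260 cells in all. UMIs of Oasl1 itself numbered 27 and 16 in the Apoe-/- libraries and 299, 257 and 315 in the libraries labelled Oasl1-/-Apoe-/-, which was higher and not lower where the gene should be missing. Tags at the 3′ end come from sequence that the deletion spares, so they do not show whether the deleted part was absent. Why these UMIs were higher, although the promoter was deleted, was not tested. The genotype was not tested either, so each direction below rests on the labels.

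Immediate early genes are transcribed within minutes of a stimulus from factors the cell already holds, without new protein synthesis, and their short-lived RNAs fall again soon after. Fos, Fosb, Jun and Junb are subunits of AP-1, a dimeric transcription factor whose make-up sets which genes it drives. Atf3 is a stress-induced factor that pairs with Jun proteins, Egr1 is a zinc finger factor induced in the vessel wall by injury and shear, Ier2 is a nuclear protein of the early growth response, and Arc is best known as a regulator of synapses. The same genes are also known to be induced while tissue is digested into single cells. By the study's methods, these aortas were digested warm with collagenases, hyaluronidase and DNase before sorting. The part of that step in the levels and group differences below was not tested.

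On GRCm38, the build of the files (mm10), GENCODE placed Fos (ENSMUSG00000021250) on the plus strand of chromosome 12 from 85473890 to 85477273. Jun (ENSMUSG00000052684) lay on the minus strand of chromosome 4 from 95049034 to 95052222, and Atf3 (ENSMUSG00000026628) on the minus strand of chromosome 1 from 191170296 to 191218039. Fosb lay on chromosome 7 (19302696 to 19310051), Junb and Ier2 near each other on chromosome 8 (84974484 to 84978718 and 84661331 to 84662852) and Arc on chromosome 15 (74669083 to 74672570). Jun overlaps Junos, and Junb overlaps Prdx2, both on the opposite strand. Both neighbours were in the table, so a value for Jun or Junb rests on reads having been counted by strand.

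Promoter windows of 250 bases before to 50 after the start site, from RefSeq on GRCm38.p6, were at hand for 5 of the 8 genes (Fos, Fosb, Jun, Junb and Atf3). They were searched on both strands for the CArG box bound by serum response factor, TGACGT (the core of the cAMP response element), TGANTCA (the AP-1 element), TGANNTCA (its longer form) and TATAAA, of which TGANTCA and TGANNTCA differ only in their spacing and the others can overlap. The 3 stretches below are shown because Jun and Atf3 were the members that differed between the groups in smooth muscle cells. Fos was the one that differed most firmly between smooth muscle subtypes and Lum/Tnfrsf11b cells, a set described below and mostly outside the smooth muscle class. The match is in capitals, and each stretch is written 5′ to 3′ on the strand of its gene.
Fos, plus strand, chr12:85473814-85473843: ttccgcccagTGACGTaggaagtccatcca
Jun, minus strand, chr4:95052248-95052277: agcctcggggTGACATCAtgggctattttt
Atf3, minus strand, chr1:191183334-191183363: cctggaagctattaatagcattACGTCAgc
Fos held TGACGT with its first base at position −66 from the start site, and TATAAA at −33. Jun held TGACATCA, a match to TGANNTCA, at −45, and another match, TGAGCTCA, at 3, where the start site is 1. Junb held TATAAA at 1, and Fosb held no match. Atf3 held TGACGT on the other strand (ACGTCA as printed) at −8, at a start site inside the longer GENCODE gene. The motifs were found in 7.51% (TGACGT), 14.1% (TGANNTCA), 7.81% (TGANTCA), 13.6% (TATAAA) and 1.63% (CArG box) of 32851 mouse windows of this length. None of the 5 members' windows held a CArG box. Sequence more than 250 bases before the start site was not searched, and Egr1, Ier2 and Arc had no window. A match is a description of letters and was not tested for function.

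Cells were assigned to classes by marker genes, none of which was an immediate early gene. The largest class was smooth muscle (Myh11, Acta2, Tagln and others) with 9821 cells, 53.8% of all. Macrophages numbered 2921, endothelial cells 1378, fibroblasts 976, NK/T cells 654 and monocytes 315, while 579 cells carried markers of both smooth muscle and fibroblasts and were kept apart. Dendritic cells (69) had fewer than 20 cells per library and were not tested as a class. In the clustering described below, a dendritic cluster held 65 and 84 cells in the Apoe-/- libraries and 93, 76 and 89 in the labelled libraries. A fit to that cluster is not reported here. Another 760 cells met no class and 523 met several. A separate partition of the same cells by clustering, made without immediate early or heat shock genes, gave the same name to 93.9% of the 15187 cells that had a name in both. By class this was 97% of smooth muscle cells, 99.3% of endothelial cells, 96.3% of macrophages and 100% of NK/T cells, but 68.5% of monocytes and 57.9% of fibroblasts. Left out of these shares were 611 macrophages and 570 smooth muscle cells that lay in clusters without a name. The largest such cluster (670 cells, led by Cd5l, Atp6v0d2 and Gpnmb) was shallow, at a median of 0.268 times the median UMIs of the library. Of the 976 fibroblasts, 361 lay in the cluster named for cartilage (led by Col2a1, Ibsp, Chad and Comp), so the fibroblast class was a mixed one. Smooth muscle cells made up fewer of the cells of the libraries labelled Oasl1-/-Apoe-/- (1489, 1402 and 1414 cells against 2633 and 2883), and macrophages more (729, 655 and 704 against 424 and 409). A cell barcode was found in more than 1 library for 165 barcodes (331 cells).

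Levels are given as CP10K, the UMIs of a gene per 10000 UMIs of the cell, averaged over the cells of a library. Ranges are over the 5 libraries. Fos was highest in smooth muscle cells (53.9 to 58.8 CP10K), followed by endothelial cells (31.0 to 40.9) and fibroblasts (24.8 to 34.1), whose ranges overlapped, then by monocytes (8.90 to 18.1) and macrophages (10.5 to 17.4), which overlapped as well, and was lowest in NK/T cells (2.58 to 7.88). Fosb in endothelial cells (8.03 to 11.3) overlapped both smooth muscle cells (9.70 to 10.9) and fibroblasts (8.66 to 9.40), and all 3 were above macrophages (2.10 to 2.59), monocytes (0.431 to 2.54) and NK/T cells (0.684 to 1.63). Egr1 had the same division into wall cells and leukocytes, with 10.8 to 11.8 CP10K in smooth muscle cells and 10.5 to 12 in fibroblasts against 0.693 to 0.960 in macrophages and 0.320 to 0.630 in monocytes.

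Jun and Ier2 were led by the endothelium. Jun ranged from 13.8 to 19.5 CP10K in endothelial cells, above fibroblasts (8.84 to 12.4) and smooth muscle cells (8.13 to 10.9), whose ranges overlapped, and above macrophages (2.43 to 3.74). Ier2 ranged from 12.3 to 16.5 in endothelial cells, above fibroblasts (7.05 to 11.6), and smooth muscle cells (4.44 to 5.04) overlapped NK/T cells (4.54 to 6.07). Junb was the exception to the wall pattern. It was lowest in smooth muscle cells (13.4 to 15.1). Macrophages (15.6 to 21.4), endothelial cells (20.7 to 23), fibroblasts (19.9 to 25.2) and monocytes (20.3 to 24.6) overlapped each other, and NK/T cells (23.6 to 27.6) overlapped the last 2. Atf3 was 7.82 to 9.90 in smooth muscle cells and 4.41 to 7.93 in monocytes, which overlapped at the edge, and monocytes overlapped macrophages (4.63 to 7.80), endothelial cells (4.92 to 7.28) and fibroblasts (3.68 to 4.52). NK/T cells were far lower, at 0.340 to 0.526. Arc was low everywhere. It reached 0.307 to 0.648 CP10K in fibroblasts and 0.256 to 0.362 in smooth muscle cells, which overlapped, was at most 0.0694 in endothelial cells, and was listed at 0 in the monocytes of every library.

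**Figure D1:**
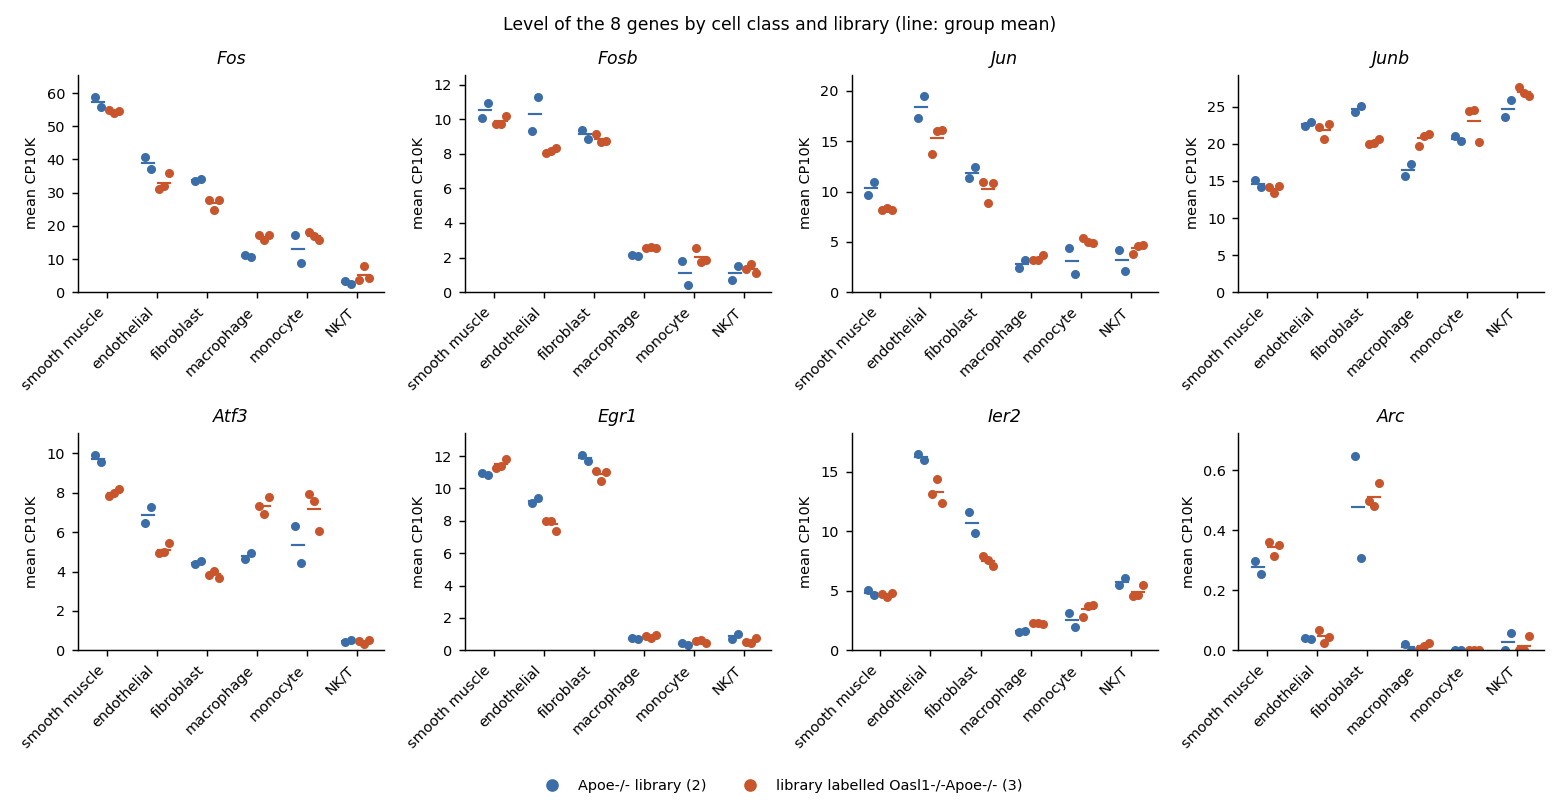
Mean CP10K (vertical axis) of each of the 8 genes in 6 cell classes (horizontal axis), with 1 point per library and a line at the group mean. Fos, Fosb and Egr1 were higher in smooth muscle, endothelial and fibroblast cells than in leukocytes, Junb was lowest in smooth muscle cells, and in macrophages the 3 libraries labelled Oasl1-/-Apoe-/- lay above both Apoe-/- libraries for Fos, Atf3 and Ier2.

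How the groups differed within a class was tested with limma on log2(mean CP10K + 0.05) of the libraries, over all genes with a mean of at least 0.05 CP10K, with Benjamini-Hochberg adjustment over all genes tested and a threshold of 0.05. Differences are the libraries labelled Oasl1-/-Apoe-/- minus the Apoe-/- libraries on this log2 scale, which understates changes of low genes. Where groups are said not to overlap, this describes the library values and is not a test. The share of all genes without overlap was not counted. In smooth muscle cells, Jun and Atf3 were lower and the other 6 genes did not pass. That is 2 of 8 genes lower, while 2.32% of the 9019 genes tested were lower, and the median difference was −0.07 over the 8 genes and 0.01 over all genes tested.

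Jun stood at 9.69 and 10.9 CP10K in the Apoe-/- libraries and 8.20, 8.38 and 8.13 in the labelled libraries. The 3 libraries lay close together and below both Apoe-/- libraries, and Jun fell by 0.32 (SE 0.0506, limma adjusted p 0.000529). Atf3 stood at 9.90 and 9.57 CP10K in the Apoe-/- libraries and 7.82, 7.99 and 8.18 in the labelled libraries. Its groups did not overlap either, and it fell by 0.28 (SE 0.0447, limma adjusted p 0.000529). Both calls held when any 1 library was left out.

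The other AP-1 subunits moved less. Fos stood at 58.8 and 55.8 CP10K in the Apoe-/- libraries and 55.0, 53.9 and 54.4 in the labelled libraries. The groups did not overlap, but the gap of −0.07 (SE 0.0408) did not pass (limma adjusted p 0.325). Fosb (−0.09, limma adjusted p 0.295) and Junb (−0.07, limma adjusted p 0.425) overlapped between the groups. Without Apoe-/- replicate 1, Fosb passed at −0.15 (limma adjusted p 0.0267), and without Apoe-/- replicate 2, Fos passed at −0.11 (limma adjusted p 0.0492).

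Egr1, Ier2 and Arc did not pass. Egr1 stood at 11 and 10.8 CP10K in the Apoe-/- libraries and 11.3, 11.4 and 11.8 in the labelled libraries, without overlap and with a difference of 0.07 (limma adjusted p 0.363). Ier2 overlapped (−0.05, limma adjusted p 0.647). Arc stood at 0.297 and 0.256 CP10K in the Apoe-/- libraries and 0.362, 0.316 and 0.353 in the labelled libraries. Its labelled libraries were all above both Apoe-/- libraries, with a difference of 0.27 (SE 0.0850, limma adjusted p 0.0644), and it passed without Apoe-/- replicate 1 (0.36, limma adjusted p 0.0287), which took the count of members past the threshold from 2 to 4.

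**Figure D2:**
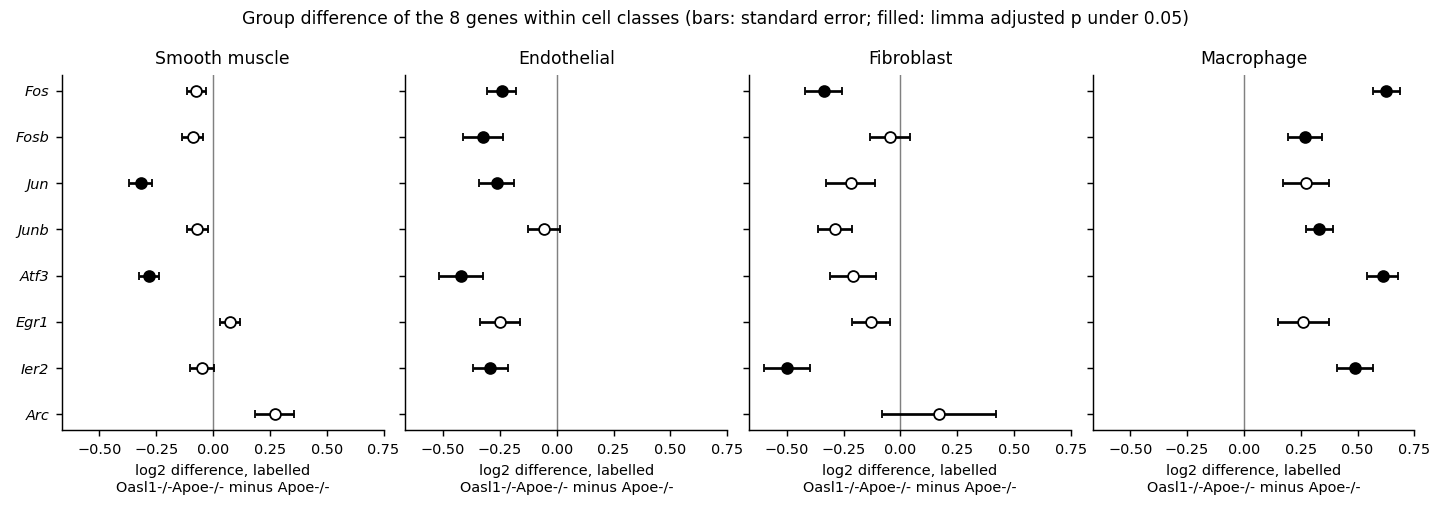
Log2 difference between the groups (horizontal axis) of each gene (vertical axis) in 4 cell classes, with bars for the standard error and filled points for a limma adjusted p under 0.05. Filled points lie left of 0 in smooth muscle, endothelial and fibroblast cells and right of 0 in macrophages, and Arc was below the filter in endothelial cells and macrophages.

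The mitochondrial share of UMIs moved with the smooth muscle result. Its median was 5.60% and 5.60% in smooth muscle cells of the Apoe-/- libraries and 6.41%, 6.34% and 6.41% in those labelled Oasl1-/-Apoe-/-, and every member except Arc was lower at 7 to 10% than at 3 to 5% in each of the 5 libraries. In Apoe-/- replicate 1, Jun was 11.1, 9.34 and 8.06 CP10K in smooth muscle cells with 3 to 5, 5 to 7 and 7 to 10% mitochondrial UMIs, and in replicate 1 labelled Oasl1-/-Apoe-/- it was 10.9, 8.25 and 6.99. Within the bin of 5 to 7%, Jun was 9.34 and 10.2 CP10K against 8.25, 8.30 and 8.22, and Atf3 was 9.58 and 9.33 against 8.25, 8.24 and 8.52. The groups did not overlap there for either gene, nor in the bin of 7 to 10%, where Jun was 8.06 and 8.50 against 6.99, 7.01 and 6.73 and Atf3 8.54 and 8.95 against 6.80, 7.28 and 6.59. In the bin of 3 to 5%, Jun overlapped (11.1 and 13.1 against 10.9, 11.5 and 10.6) and Atf3 did not (11.2 and 10.4 against 8.78, 8.67 and 10.1). With only cells under 5%, which kept 30.3% and 30.1% against 14.4%, 16.4% and 15.4% of smooth muscle cells, neither Jun (−0.14, limma adjusted p 0.561) nor Atf3 (−0.21, limma adjusted p 0.313) passed. In those cells Arc passed at 0.94 (limma adjusted p 0.00389), with 0.283 and 0.214 CP10K against 0.518, 0.442 and 0.499 in the bin of 3 to 5%. The part of the mitochondrial share in these differences was not tested.

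**Figure D3:**
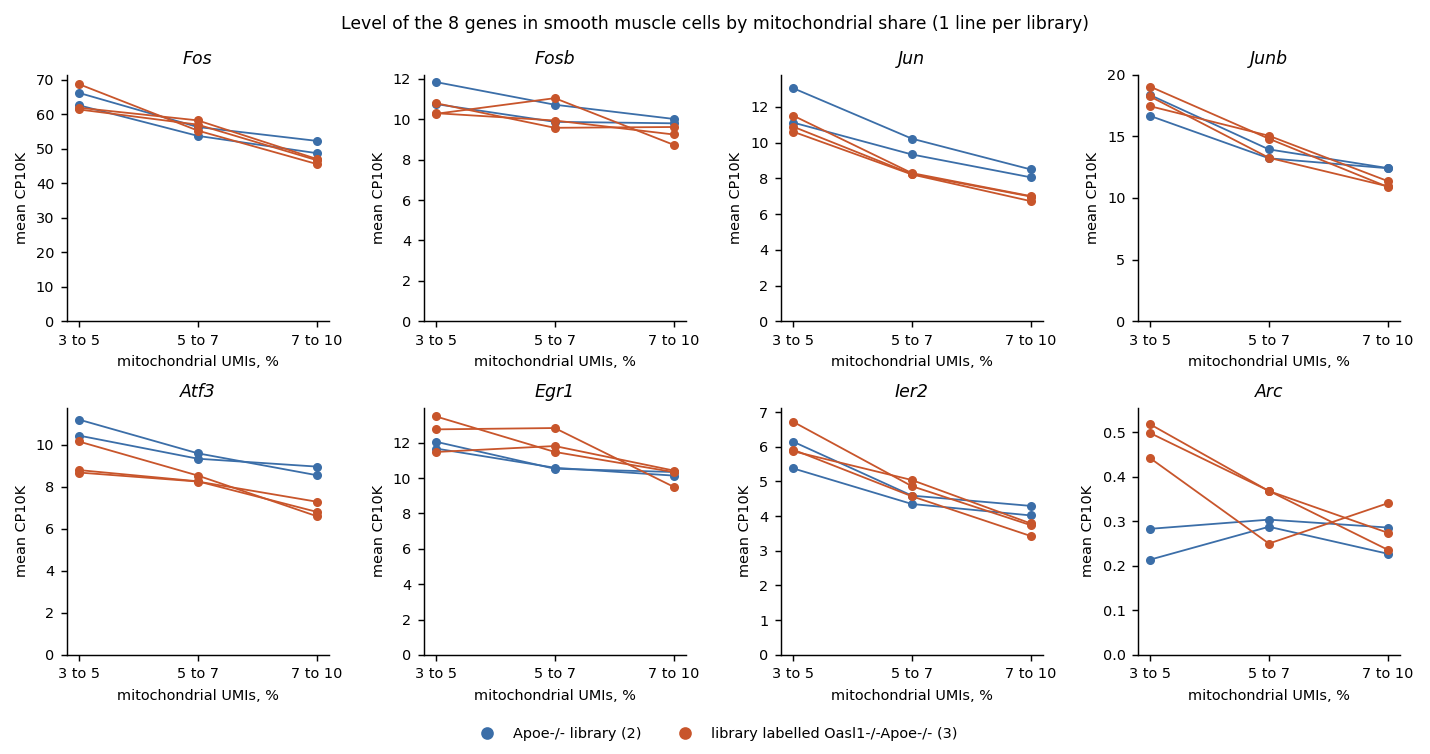
Mean CP10K (vertical axis) of each gene in smooth muscle cells by mitochondrial share of UMIs in % (horizontal axis), with 1 line per library. All genes but Arc were lower at 7 to 10% than at 3 to 5% in each of the 5 libraries, and for Jun and Atf3 the Apoe-/- lines stayed above the others from 5% on.

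Smooth muscle cells were split by 3 pairs of marker genes, of which Lum and Tnfrsf11b mark modulated cells that have moved towards a matrix-producing state. Igfbp2/Nov cells numbered 2394, P2rx1/Ccdc3 cells 1842 and Lum/Tnfrsf11b cells 546, and 5505 cells had none of the pairs clearly. The Lum/Tnfrsf11b set was drawn from smooth muscle cells and from the 579 cells with markers of both smooth muscle and fibroblasts. Most of it came from the latter, while the other sets held smooth muscle cells only, and Lum is itself a fibroblast marker. Mean Fos was 36.9 CP10K in Lum/Tnfrsf11b cells, 37.3 in the cells of both markers and 55.6 in smooth muscle cells. Comparisons with Lum/Tnfrsf11b cells are thus largely comparisons of these 2 classes. Subtypes were compared within libraries, so each library served as its own control. Between Igfbp2/Nov and P2rx1/Ccdc3 cells, 0 of 8 genes passed by limma (2.20% of 8996 genes did), while Egr1 and Ier2 had an unadjusted p under 0.05, and both passed with a pseudocount of 0.5 CP10K.

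Lum/Tnfrsf11b cells had less Fos and Atf3. Fos was 38.4 and 36.9, then 38.8, 35.5 and 34.7 CP10K in them, 52.3 and 51.8, then 54.6, 52.4 and 54.2 in Igfbp2/Nov cells, and 61.6 and 55.6, then 53.3, 54.5 and 53.9 in P2rx1/Ccdc3 cells, with the 2 Apoe-/- libraries given first. Every value in Lum/Tnfrsf11b cells was below every value in the other 2 subtypes, with log2 differences of −0.53 (SE 0.0940, limma adjusted p 0.00670) and −0.60 (SE 0.0955, limma adjusted p 0.00337). Atf3 was 6.97 and 5.86, then 6.27, 6.37 and 3.92 CP10K in Lum/Tnfrsf11b cells and 9.14 and 9.13, then 8.04, 8.04 and 8.62 in Igfbp2/Nov cells. Again no value overlapped, with differences of −0.57 (limma adjusted p 0.0265) and, against P2rx1/Ccdc3 cells, −0.56 (limma adjusted p 0.0207).

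Arc and Ier2 went the other way. Arc was 0.411 and 0.356, then 0.492, 0.455 and 0.5 CP10K in Lum/Tnfrsf11b cells against 0.301 and 0.240, then 0.238, 0.387 and 0.196 in P2rx1/Ccdc3 cells, 0.63 higher (limma adjusted p 0.0236), and 0.40 higher than in Igfbp2/Nov cells (limma adjusted p 0.0378). Arc ranges overlapped at the edge between Lum/Tnfrsf11b and P2rx1/Ccdc3 cells. Ier2 was 0.42 higher than in P2rx1/Ccdc3 cells (limma adjusted p 0.0210). In all, 3 of 8 genes differed from Igfbp2/Nov cells (20.2% of 9182 genes did) and 4 of 8 from P2rx1/Ccdc3 cells (23.9% of 9191). The Fos calls held when any 1 library was left out. The call of Arc against Igfbp2/Nov cells was lost without each library (limma adjusted p 0.0580 to 0.117), that of Atf3 without Apoe-/- replicate 2 or labelled replicates 1 or 3 (0.0519 to 0.0664), and against P2rx1/Ccdc3 cells Arc lost its call without labelled replicates 1 or 3 (0.0678 to 0.0762), Atf3 without either Apoe-/- library or labelled replicate 3 (0.0540 to 0.0621), and Ier2 without Apoe-/- replicate 2 or labelled replicates 1 or 2 (0.0531 to 0.0703). Lum/Tnfrsf11b cells were deeper (median 6418 UMIs against 5195 and 4942.5), and with cells under 5% mitochondrial UMIs Fos alone kept its calls.

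**Figure D4:**
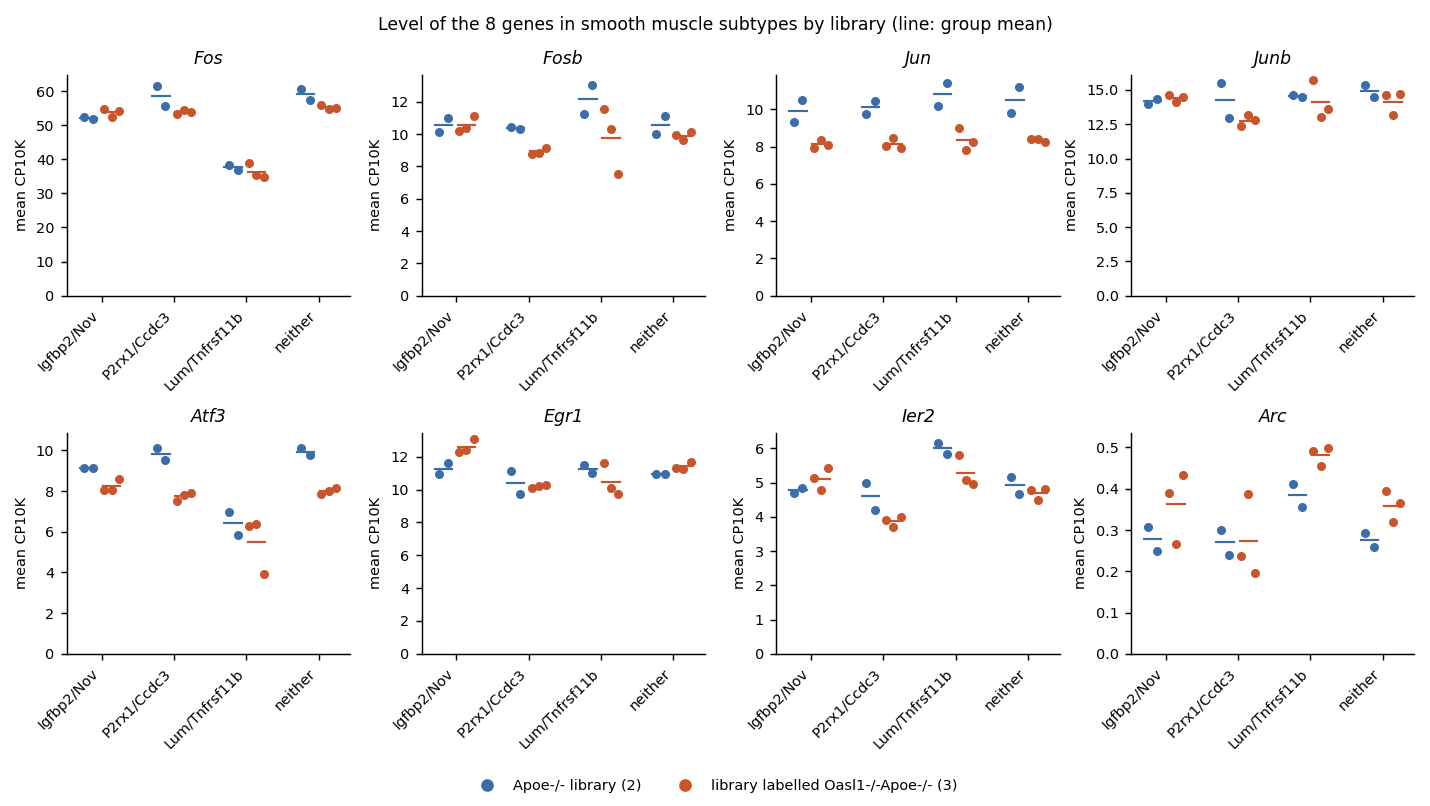
Mean CP10K (vertical axis) of each gene in 4 sets of cells (horizontal axis), with 1 point per library and a line at the group mean. The Lum/Tnfrsf11b set came mostly from cells with markers of both smooth muscle and fibroblasts, and the other sets from smooth muscle cells. Fos and Atf3 were lowest in Lum/Tnfrsf11b cells, Arc was highest there, and the libraries labelled Oasl1-/-Apoe-/- lay below the Apoe-/- libraries for Jun in all 4 sets.

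The group difference of Jun was present in each subtype by value. In Igfbp2/Nov cells Jun stood at 9.34 and 10.5 CP10K in the Apoe-/- libraries and 7.92, 8.36 and 8.10 in the labelled libraries, with no overlap and a difference of −0.29 (limma adjusted p 0.00547). It was the only member of 8 past the threshold there (0.883% of 9055 genes were lower), and it lost the call without Apoe-/- replicate 2 (−0.20, limma adjusted p 0.109) or labelled replicate 1 (−0.27, limma adjusted p 0.0552). In P2rx1/Ccdc3 cells Jun (−0.31, limma adjusted p 0.00408) and Atf3 (−0.34, limma adjusted p 0.00121) were lower, 2 of 8 where 0.829% of 8930 genes were lower. Without Apoe-/- replicate 2, 6 members were lower in these cells, Fos (−0.19), Fosb (−0.23), Junb (−0.28) and Ier2 (−0.36) being added. In the cells with none of the pairs, Jun (−0.32, limma adjusted p 0.00179) and Atf3 (−0.31, limma adjusted p 0.000774) were lower, where 1.27% of 9002 genes were. In Lum/Tnfrsf11b cells 0 of 8 passed by limma (0.390% of 9219 genes were lower), with 2 at an unadjusted p under 0.05. Jun there stood at 10.2 and 11.4 CP10K in the Apoe-/- libraries and 9.02, 7.80 and 8.25 in the labelled libraries, and its difference of −0.37 (SE 0.0974) had a limma adjusted p of 0.0593, which passed without Apoe-/- replicate 1 (−0.45) or labelled replicate 1 (−0.42). Whether the difference of a gene varied between subtypes was not tested.

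In endothelial cells, 5 of the 7 genes tested were lower, Atf3, Fosb, Ier2, Jun and Fos, where 1.04% of 9465 genes were lower. The median difference was −0.26 over the 7 genes and −0.01 over all genes. Atf3 stood at 6.48 and 7.28 CP10K in the Apoe-/- libraries and 4.92, 4.97 and 5.46 in the labelled libraries, without overlap, and fell by 0.42 (SE 0.0971, limma adjusted p 0.00199). Fosb stood at 9.31 and 11.3 CP10K in the Apoe-/- libraries and 8.03, 8.16 and 8.33 in the labelled libraries, with the labelled libraries close together, and fell by 0.32 (SE 0.0878, limma adjusted p 0.0141). Ier2 stood at 16.5 and 16.0 CP10K in the Apoe-/- libraries and 13.1, 14.4 and 12.3 in the labelled libraries and fell by 0.29 (SE 0.0782, limma adjusted p 0.0132). Neither gene overlapped between the groups. Jun stood at 17.3 and 19.5 CP10K in the Apoe-/- libraries and 13.8, 16.1 and 16.2 in the labelled libraries and fell by 0.26 (SE 0.0774, limma adjusted p 0.0317). Fos stood at 40.9 and 37.0 CP10K in the Apoe-/- libraries and 31.0, 32.0 and 35.9 in the labelled libraries and fell by 0.24 (SE 0.0658, limma adjusted p 0.0144). Jun and Fos did not overlap, though labelled replicate 3 came close to Apoe-/- replicate 2 for Fos. Egr1 did not overlap either but did not pass (−0.25, limma adjusted p 0.118), and it passed when cells were taken from clusters (−0.30, limma adjusted p 0.0324). Junb, at 22.5 and 23 CP10K in the Apoe-/- libraries and 22.2, 20.7 and 22.7 in the labelled libraries, overlapped (−0.06, limma adjusted p 0.849).

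Each of these endothelial calls was lost without at least 1 library. Without labelled replicate 1 none of the 7 passed, Atf3 coming nearest (−0.39, limma adjusted p 0.0510). Without Apoe-/- replicate 2, Fos and Ier2 remained, and without Apoe-/- replicate 1, Atf3, Fosb and Jun remained. Fos was lost without labelled replicate 2 and Ier2 without labelled replicate 3. The endothelial class held 2 clusters whose shares moved with the groups. The larger (led by Ptprb, Gkn3 and Adh7) held 342 and 352 cells of the class in the Apoe-/- libraries and 194, 180 and 164 in the labelled libraries, and the smaller (led by Ccl21a, Nts and Gpihbp1) 12 and 18 against 34, 40 and 33, which was 3.38% and 4.84% against 14.7%, 18.1% and 16.7% of the class. In the larger cluster alone, Fos stood at 41.6 and 37.5 CP10K in the Apoe-/- libraries and 32.0, 33.7 and 34.4 in the labelled libraries, and 4 members were lower, Atf3 (−0.49), Jun (−0.33), Fosb (−0.31, limma adjusted p 0.0494) and Fos (−0.24), while Ier2 (−0.25) did not pass (limma adjusted p 0.0983). In the smaller, Fos stood at 21.9 and 30.8 CP10K in the Apoe-/- libraries and 27.4, 25.2 and 43.4 in the labelled libraries, which overlapped, and no member passed, with Fos at 0.26 (limma adjusted p 0.634). With both clusters weighted equally no member passed either, Atf3 having −0.30 (limma adjusted p 0.681), a value that rests on the 12 and 18 cells of the Apoe-/- libraries, below the minimum of 20 set for the other classes. Smooth muscle markers summed to 1.90% and 1.63% of their smooth muscle level in endothelial cells of the Apoe-/- libraries and 0.932%, 1.31% and 0.907% in the others. At those shares smooth muscle RNA would carry 0.494 to 1.12 CP10K of Fos, which is 1.38% to 2.73% of its endothelial level.

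In fibroblasts, Ier2 and Fos were lower, 2 of 8 where 1.47% of 9475 genes were lower. Ier2 stood at 11.6 and 9.83 CP10K in the Apoe-/- libraries and 7.95, 7.61 and 7.05 in the labelled libraries, without overlap, and fell by 0.50 (SE 0.101, limma adjusted p 0.0142). Fos stood at 33.6 and 34.1 CP10K in the Apoe-/- libraries and 27.9, 24.8 and 27.8 in the labelled libraries, also without overlap, and fell by 0.34 (SE 0.0810, limma adjusted p 0.0378). Junb stood at 24.3 and 25.2 CP10K in the Apoe-/- libraries and 19.9, 20.2 and 20.7 in the labelled libraries, without overlap, and, with −0.29, lay just outside the threshold (limma adjusted p 0.0596). Both calls depended on how fibroblasts were chosen. The cells of the cartilage cluster made up 24.1% and 22.03% of the class in the Apoe-/- libraries and 46.8%, 37.1% and 40.6% in the labelled libraries, and Fos was lower in them, at 24.8 and 24.3 CP10K in the Apoe-/- libraries and 17.3, 20.2 and 17.0 in the labelled libraries. In the other fibroblasts Fos stood at 36.3 and 36.9 CP10K in the Apoe-/- libraries and 37.2, 27.5 and 35.3 in the labelled libraries, and Ier2 at 12.7 and 10.7 CP10K in the Apoe-/- libraries and 10.2, 8.92 and 8.11 in the labelled libraries. Fos overlapped between the groups there and Ier2 did not, and neither passed (−0.15, limma adjusted p 0.640, and −0.37, limma adjusted p 0.186), so that no member differed past the threshold in fibroblasts outside the cartilage cluster. With clusters, Fos had a difference of 0.01 and Ier2 one of −0.05 (limma adjusted p 0.865). Fos lost its call without any 1 of the 5 libraries (limma adjusted p 0.0639 to 0.163), and Ier2 without Apoe-/- replicate 1 (0.0564) or labelled replicates 2 (0.0804) or 3 (0.0824). Fibroblasts of the labelled libraries were deeper (median 6666, 6246 and 6667 UMIs against 4179 and 4306). Smooth muscle markers reached 5.52% to 6.58% of their smooth muscle level in fibroblasts, at which smooth muscle RNA would carry 9.71% to 12.9% of fibroblast Fos.

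Macrophages went the other way. Here 5 of the 7 genes tested were higher, Fos, Atf3, Ier2, Junb and Fosb, where 10.1% of 7883 genes were higher, and the median difference was 0.33 over the 7 genes and 0.05 over all genes. Fos stood at 11.2 and 10.5 CP10K in the Apoe-/- libraries and 17.4, 15.7 and 17.2 in the labelled libraries, rising by 0.63 (SE 0.0599, limma adjusted p 9.52e-07). Atf3 stood at 4.63 and 4.94 CP10K in the Apoe-/- libraries and 7.32, 6.90 and 7.80 in the labelled libraries, rising by 0.61 (SE 0.0677, limma adjusted p 5.66e-06). In both, every labelled library was well above both Apoe-/- libraries. Ier2 stood at 1.58 and 1.64 CP10K in the Apoe-/- libraries and 2.27, 2.34 and 2.22 in the labelled libraries, rising by 0.49 (limma adjusted p 0.000291). Junb stood at 15.6 and 17.3 CP10K in the Apoe-/- libraries and 19.8, 21.1 and 21.4 in the labelled libraries, rising by 0.33 (limma adjusted p 0.000558). Fosb stood at 2.15 and 2.10 CP10K in the Apoe-/- libraries and 2.57, 2.59 and 2.57 in the labelled libraries, rising by 0.27 (limma adjusted p 0.0198). None of these 3 overlapped between the groups, though the Fosb call was lost without any 1 of the labelled libraries (limma adjusted p 0.0720 to 0.0858). Jun overlapped (0.27, limma adjusted p 0.0811) and passed without Apoe-/- replicate 2 (0.47, limma adjusted p 0.000169), and Egr1, at 0.734 and 0.693 CP10K in the Apoe-/- libraries and 0.870, 0.773 and 0.960 in the labelled libraries, did not pass (0.26, limma adjusted p 0.131).

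The make-up of the macrophage class moved with the groups. Taken from clusters, macrophages numbered 300 and 305 in the Apoe-/- libraries and 594, 559 and 617 in the labelled libraries. The class itself held 424 and 409, then 729, 655 and 704. The part of shallow cells left in unnamed clusters was not tested. Over all settings run, Fos differed by 0.455 to 0.674 and Atf3 by 0.404 to 0.656. Cells with at least 3 UMIs of Gpnmb and Lpl, genes of lipid-laden macrophages, numbered 272 and 266 in the Apoe-/- libraries and 320, 287 and 310 in the others, and the remaining macrophages numbered 152 and 143 against 409, 368 and 394. Fos was 10.1 and 9.82 against 13.3, 12.9 and 14.8 CP10K in the first set and 13.2 and 11.7 against 20.5, 17.8 and 19.2 in the second, and Atf3 was 3.70 and 4.16 against 5.65, 5.59 and 6.55 in the first. In the second, Atf3 was 6.30 and 6.39 against 8.63, 7.92 and 8.78. Both genes were higher in the labelled libraries, without overlap, in either set, and both passed in each set tested alone. With the 2 sets weighted equally, 4 members passed, Fosb being lost (0.16, limma adjusted p 0.211). Ier2 and Fosb did not pass in either set alone, and Junb passed only in the second. Smooth muscle markers in macrophages summed to 0.719% and 0.754% of their smooth muscle level in the Apoe-/- libraries. In the labelled libraries they summed to 0.404%, 0.368% and 0.345%. The part of such RNA in the macrophage differences was not tested.

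Monocytes and NK/T cells had no member past the threshold by limma. In monocytes (32 to 81 cells per library, 2.29% of 7378 genes past the threshold), 4 of the 7 genes tested had an unadjusted p under 0.05. Fos stood at 17.1 and 8.90 CP10K in the Apoe-/- libraries and 18.1, 16.9 and 15.8 in the labelled libraries there, with a difference of 0.45 (SE 0.198, limma adjusted p 0.306), and Apoe-/- replicate 2 alone was low. Without Apoe-/- replicate 1, so against replicate 2 only, Fos differed by 0.92, Fosb by 2.10, Jun by 1.48, Atf3 by 0.69 and Ier2 by 0.82. Smooth muscle markers summed to 1.72% of their smooth muscle level in monocytes of that replicate and to 0.276% to 0.575% in the other libraries. At 1.72%, smooth muscle RNA would carry 43.5% of Fosb, 58.2% of Egr1, 10.8% of Fos, 10.5% of Jun, 4.13% of Ier2 and 3.73% of Atf3 there. The part of such RNA in these differences was not tested. In NK/T cells (90 to 162 cells per library, 1.36% of 8069 genes past the threshold), 2 genes had an unadjusted p under 0.05. Fos stood at 3.45 and 2.58 CP10K in the Apoe-/- libraries and 3.59, 7.88 and 4.19 in the labelled libraries, with a difference of 0.71 (limma adjusted p 0.145), and without Apoe-/- replicate 1 Fos (0.92) and Jun (1.01) passed.

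Over all cells of a library pooled, 6 of 8 genes were lower, where 20.6% of 9836 genes were lower, and Junb was higher, where 20.5% were higher. Fos stood at 46.5 and 44.4 CP10K in the Apoe-/- libraries and 35.8, 34.8 and 35.5 in the labelled libraries, a difference of −0.36 (SE 0.0407, limma adjusted p 5.56e-05). Jun differed by −0.41, Fosb by −0.34, Atf3 by −0.30, Egr1 by −0.27 and Ier2 by −0.18, and Junb by 0.12 (limma adjusted p 0.0415). Arc did not pass (0.16, limma adjusted p 0.127). In such a sum, fewer cells of a type and less RNA per cell cannot be told apart, and smooth muscle cells were fewer in the labelled libraries. When each library was given the same weights of cell classes, 2 members passed, Jun (−0.25) and Atf3 (−0.14), and Egr1 had a difference of 0.01. Some calls also turned on 1 library. Junb was lost without Apoe-/- replicate 2 or any labelled library (limma adjusted p 0.0741 to 0.155), Ier2 without labelled replicate 3 (0.0625), and Arc was gained without Apoe-/- replicate 1 (0.26, limma adjusted p 0.0335).

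Whether a gene's group difference itself varied between classes was tested on the smooth muscle value minus that of another class within each library. Against macrophages, 2 of 7 genes passed, where 3.57% of 6804 genes did. The difference of differences was −0.89 for Atf3 (SE 0.122, limma adjusted p 0.0221) and −0.70 for Fos (SE 0.133, limma adjusted p 0.0405). Atf3 was lower in smooth muscle cells and higher in macrophages of the same labelled libraries, as the levels above show. Jun (−0.59, limma adjusted p 0.0834), Ier2 (−0.54, limma adjusted p 0.0825), Junb (−0.40, limma adjusted p 0.114), Fosb (−0.36, limma adjusted p 0.175) and Egr1 (−0.19, limma adjusted p 0.496) had the same sign and did not pass. Both calls were lost without any 1 of the 5 libraries, at values of −0.96 to −0.82 for Atf3 (limma adjusted p 0.0556 to 0.0969) and −0.74 to −0.68 for Fos (0.0910 to 0.142). Against endothelial cells 0 of 7 genes passed by limma (0.0610% of 8200 genes did, and 0 of the 7 had an unadjusted p under 0.05), and 4 by limma-voom on summed UMIs. Against fibroblasts 0 of 8 passed (0.0119% of 8428 genes did, and 1 of the 8, Ier2, had an unadjusted p under 0.05), and again 4 by limma-voom.

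Correlation within libraries described how far the genes were found in the same cells. Each cell was thinned to 1000 UMIs to compare cells of unlike depth, and 245 Apoe-/- cells and 311 labelled Oasl1-/-Apoe-/- had too few UMIs for this. Over smooth muscle cells, the Pearson correlation of log values within a library, averaged over the 5 libraries, was 0.353 for Fos and Junb, 0.350 for Fos and Egr1 and 0.327 for Fosb and Egr1. Jun was less tied to the others, with 0.241 to Fos and 0.167 to Egr1, and Arc least, with 0.0113 to Jun and 0.0860 to Egr1. These are descriptions across cells that share a library.

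At least 4 of the 8 genes were found in 65.1% and 65.5% of smooth muscle cells of the Apoe-/- libraries and in 61.9%, 58.2% and 59.4% of those labelled Oasl1-/-Apoe-/- (95% Wilson intervals 63.2 to 66.9, 63.7 to 67.2, 59.4 to 64.3, 55.6 to 60.8 and 56.8 to 61.9). The groups did not overlap, and the mean fell by 5.44 percentage points, from 65.3 ± 0.291% (SD, n = 2) to 59.8 ± 1.87% (SD, n = 3), with an exact two-sided permutation p of 0.1, the smallest that 2 against 3 libraries can give. Not thinned, the means were 95.9% and 93.7%. In cells under 5% mitochondrial UMIs they were 70.5% and 69.5% (exact permutation p 0.2). Among subtypes the mean share fell by 1.55 points in Igfbp2/Nov cells. It fell by 10.5 points in P2rx1/Ccdc3 cells and fell by 7.32 points in Lum/Tnfrsf11b cells, with exact permutation p of 0.3, 0.1 and 0.1. Macrophages had 15.4 ± 0.561% (SD, n = 2) against 23.6 ± 1.51% (SD, n = 3), NK/T cells 6.19% against 9.42%, endothelial cells 70.7% against 62.0% and fibroblasts 62.4% against 52.9%. Not thinned, these 4 classes had 62.2% against 74.7%, 14.95% against 19.5%, 87.3% against 87.8% and 87.4% against 90.04%, so that the lower shares of the labelled endothelial cells and fibroblasts were seen only at equal depth. Monocytes had 15.3 ± 8.42% (SD, n = 2) against 26.5 ± 0.449% (SD, n = 3) thinned and 56.4% against 77.5% not thinned. No cell type is known to lack all of these genes, so NK/T cells, at a median of 1761 UMIs, gave the lowest share but not a background.

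**Figure D5:**
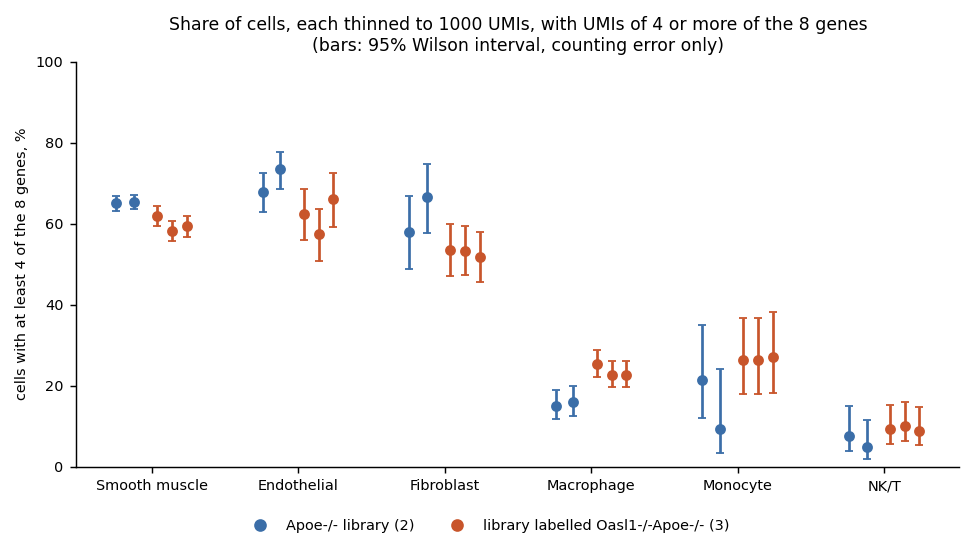
Share of cells with UMIs of at least 4 of the 8 genes, each cell thinned to 1000 UMIs (vertical axis, %), by cell class (horizontal axis) and library, with 95% Wilson intervals. The labelled libraries lay below both Apoe-/- libraries in smooth muscle cells, endothelial cells and fibroblasts and above them in macrophages, monocytes and NK/T cells.

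Other genes of the same response were read from lists. Among 37 other immediate early genes tested in smooth muscle cells, 5 were lower and 3 higher, where 2.32% of all genes tested were lower and 4.47% higher, with a median difference of 0.09 against 0.01 over all genes. The lower genes were Klf2 (from 13.6 to 10.3 CP10K) and Klf4 (from 4.37 to 3.57 CP10K), flow-responsive factors of the vessel wall, the orphan receptor Nr4a1 (from 9.18 to 7.85 CP10K), the antiproliferative Btg2 and the stress gene Gadd45b, the last pair being named after their values were seen. Ptgs2, which encodes cyclooxygenase-2, rose from 0.817 to 1.05 CP10K, and Klf10 and Zfp36l1, which encodes an RNA decay factor, rose by 0.29 and 0.26. In endothelial cells 7 of 34 were lower and 1 higher, where 1.04% of all genes were lower and 2.41% higher. In fibroblasts 6 of 38 were lower and 2 higher, against 1.47% and 2.14% of all genes. In macrophages 3 of 35 were lower and 17 higher, against 6.23% and 10.1%.

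For the lists that follow, 4.47% of all genes tested in smooth muscle cells rose and 2.32% fell. Among 12 feedback inhibitors of MAP kinase signalling, Dusp5 (0.42) and Spry2 (0.39) rose in smooth muscle cells and none fell. None of the 20 kinases and serum or cAMP response factors tested passed there. Of 8 AP-1 and ATF partners, Atf5 (−0.32) and Atf4 (−0.30), factors of the integrated stress response, fell. Among 9 genes known as AP-1 targets from other work, Spp1 (osteopontin, 1.53), the chemokine gene Ccl2 (0.87), the protease inhibitor gene Timp1 (0.60) and Hmox1 (haem oxygenase, 0.42) rose. Macrophage markers in the same smooth muscle cells summed to 0.379 and 0.317 CP10K in the Apoe-/- libraries and 0.665, 0.827 and 0.774 in the labelled libraries, or 0.162% and 0.150% against 0.260%, 0.324% and 0.310% of their macrophage level, and their part in these 4 differences was not tested. Of 13 heat shock genes, 10 rose in smooth muscle cells, where 4.47% of all genes did, and none fell, with Hspa1b at 0.440 to 0.751 CP10K and Dnaja1 at 2.36 to 3.61 CP10K, and 10 rose in endothelial cells (2.41% of all genes) and 7 each in fibroblasts (2.14%) and macrophages (10.1%). In NK/T cells 8 of 13 rose and in monocytes 1, with none lower, where 1.36% and 2.29% of all genes passed in either direction. The heat shock genes past the threshold were thus all higher in each of these classes. The AP-1 targets were not. In macrophages 2 of 9 of them rose and 4 fell, where 10.1% of all genes rose and 6.23% fell. In endothelial cells 5 of 9 rose and in fibroblasts 4 of 11, with none lower, where 2.41% and 2.14% of all genes rose.

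The genes whose pattern was most like the mean of the 8 members, over 35 points (7 classes in 5 libraries) and 9916 genes, were Ctdspl, St3gal2, Hmgn3, Lynx1, Npr2, Mfap5, Casp12 and Fgfrl1, with Pearson correlations of 0.964 to 0.971. Ctdspl had 0.461 CP10K in smooth muscle, 0.468 in endothelial and 0.440 in fibroblast cells against 0.0252 in macrophages, which is the division into wall cells and leukocytes that Fos, Fosb and Egr1 had. The points share libraries and classes, and none of the 8 was in a list above.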

How the data were processed

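Live cells of the aortic arch, freed by enzyme digestion, were sequenced from the 3′ end. Per the labels and the study's methods, the authors aligned reads to mm10 and counted UMIs with Cell Ranger 3.1.0, removed poor cells and doublets (DoubletFinder), and normalized with Seurat 4.0.3 (versions from the submitters' processing notes). The table deposited by the authors holds natural log values, of UMIs per 10000 UMIs of a cell with 1 added. Whole UMIs were recovered from 100% of values (tolerance 0.01). No further doublet call was made.

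Classes were gated on at least 3 markers with a relative score of at least 0.4 and a second score of at most 0.6, a scoring rule set after the data were seen. The 8 members, the lists and the tests were chosen with earlier results of these data known. Library means were tested with limma 3.58.1 (R 4.3.3) on log2(CP10K + 0.05), with a filter at 0.05 CP10K, since the table's unit is a log value. Shares were compared by exact permutation, and Wilson intervals cover counting error only. Clustering used scanpy 1.11.5 and leidenalg 0.10.2. Alternatives were other classes (clusters), limma-voom on summed UMIs, a pseudocount of 0.5, no filter, cells under 5% mitochondrial UMIs, reweighted classes, the replicate number as a block and leaving out each library. Splits of macrophages by Gpnmb and Lpl, of fibroblasts by the cartilage cluster and of endothelial cells by cluster were added after seeing the data. Genes named were the 8 members, up to 6 per list past the threshold in smooth muscle cells, and the 8 most alike in pattern.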

Additional observations from a re-analysis of the deposited data

Results flagged for a closer look

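Of the 7 genes tested, 2 had a group difference that itself differed between smooth muscle cells and macrophages by limma over the libraries, where 3.57% of 6804 genes did. Both calls were lost when any 1 library was left out. They were also lost with cells under 5% mitochondrial UMIs and with the replicate number as a block. For Atf3 the difference in smooth muscle cells minus that in macrophages was −0.89 on the log2 scale (SE 0.122, limma adjusted p 0.0221), Atf3 being lower in smooth muscle cells and higher in macrophages of the labelled libraries. For Fos it was −0.70 (SE 0.133, limma adjusted p 0.0405), with the macrophage side past the threshold in its own test and the smooth muscle side not.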

How the results depend on the processing

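With cells under 5% mitochondrial UMIs, 1 member passed in smooth muscle cells, 0 within Igfbp2/Nov, P2rx1/Ccdc3 and remaining cells, 1 in each comparison with Lum/Tnfrsf11b cells and 0 for the effect against macrophages, and Ier2 (0.12) and Junb (0.081) changed sign in smooth muscle cells. Without a filter, 1 passed in endothelial cells, 0 in fibroblasts, 0 in Igfbp2/Nov cells and 1 each in P2rx1/Ccdc3 and remaining cells. With clusters, 0 passed in fibroblasts, where Egr1 (0.13), Fos (0.013) and Junb (0.085) changed sign. With a pseudocount of 0.5, 2 passed between Igfbp2/Nov and P2rx1/Ccdc3 cells and 6 for the effect against macrophages. By limma-voom, 6 passed for that effect and 4 each against endothelial cells and fibroblasts. Reweighted classes left 2 in the whole aorta, with Egr1 at 0.011. Macrophages with Gpnmb and Lpl alone gave 2, and the others alone 3. The cause was not tested for any of these. Fibroblasts outside the cartilage cluster gave 0, with changed signs for Arc (−0.028), Egr1 (0.082), Fosb (0.10) and Jun (0.00096). The larger endothelial cluster gave 4. The smaller gave 0, with changed signs for Atf3 (0.0017), Egr1 (0.61), Fos (0.26), Fosb (0.13), Ier2 (0.55), Jun (0.65) and Junb (0.70). Both weighted equally gave 0, with Egr1 at 0.083, Ier2 at 0.0011, Jun at 0.11 and Junb at 0.26. For these splits too the cause was not tested. In smooth muscle cells, the only class checked, the deviations of the samples numbered 1 had a correlation of 0.00948, and the samples are taken to share only a number. With the replicate number as a block 2 passed in monocytes, 1 in NK/T cells and 0 for the effect against macrophages.

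Leaving out each library gave 2 to 4 members in smooth muscle cells, 0 to 4 in endothelial cells, 0 to 1 in fibroblasts, 4 to 6 in macrophages, 0 to 5 in monocytes, 0 to 2 in NK/T cells, 5 to 8 in the whole aorta and 0 for the effect against macrophages. It gave 0 to 1 within Igfbp2/Nov, 0 to 1 within Lum/Tnfrsf11b, 2 to 6 within P2rx1/Ccdc3 and 2 to 3 within remaining cells, 1 to 2 between Lum/Tnfrsf11b and Igfbp2/Nov cells and 2 to 3 against P2rx1/Ccdc3 cells. The share with at least 4 genes differed by −6.46 to −4.64 points. Ier2 in smooth muscle cells ranged from −0.11 to 0.011, changing sign without Apoe-/- replicate 1, and Arc in fibroblasts from −0.31 to 0.65, changing sign without Apoe-/- replicate 2. With 2 and 3 libraries, a permutation test cannot go below 0.1.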
